A study of Homo sapiens with 6 samples.

Results

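The expression of 33 genes of amino acid synthesis and transport was followed in MIA PaCa-2 cells with and without recombinant human cytoglobin (rhCYGB). The members are enzymes and carriers chosen by their role, with earlier results of these data known. They were taken from the deposited gene table by symbol, and all 33 were found among the 35993 genes listed. By role, 9 belong to serine, glycine and one-carbon metabolism, 3 to proline metabolism, 2 to transsulfuration, 7 to the glutamine, glutamate, asparagine and transaminase group, 2 to arginine synthesis and 10 to amino acid transport across the plasma membrane.

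MIA PaCa-2 is a human pancreatic carcinoma cell line, and cytoglobin is a haem protein of the globin family. The 3 untreated and the 3 rhCYGB libraries came from the same line, grown with 10% FBS and 2.5% horse serum and moved to 1% FBS before treatment. The treated group received 4 µM rhCYGB for 48 h, and the other is labelled only as control, so a carrier buffer is not described for it. rhCYGB carried a histidine tag and was purified from bacteria. The study asked what exogenous cytoglobin does to pancreatic cancer cells, and the 6 poly(A)-selected libraries give the mRNA side of that question for 1 dose, 1 time and 1 line.

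The libraries held 34838399 to 42271299 counted reads, and 14728 genes passed a filter on low counts and were tested. Expression is given as CPM, each count relative to its library's total after scaling by the trimmed mean of M values, and all 33 members were tested. Libraries of the same group correlated at 0.987 or above and libraries of different groups at 0.929 or below (Pearson r of log2 CPM across genes, which are not independent replicates). The usual features of the line were present: *CDKN2A*, deleted in MIA PaCa-2 cells, had 0 counts in every library, *EPCAM* had 0, *CDH1* had at most 2, and *KRT8*, *KRT18* and *VIM* were abundant. Of the other keratins looked at, *KRT19* had 5886 to 11844 counts and *KRT7* only 21 to 38. Of 17 markers of acinar, islet, stellate, leukocyte and endothelial cells, 13 had at most 10 counts in every library and 10 of them had 0. *COL1A2* was an exception, with 5188 to 6191 counts untreated and 213 to 292 after rhCYGB; *CDH5*, *ACTA2* and *CD68* were the others. Their part in the results below was not tested. In lysates of whole cultures a change in the number of cells and a change in RNA per cell cannot be told apart, and every value is a share of its library.

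Cells make the nonessential amino acids from intermediates of glycolysis and the citric acid cycle and import the rest through solute carriers, many of which exchange one amino acid for another. Serine is made from 3-phosphoglycerate and feeds glycine and the folate-bound carbon units that nucleotide synthesis uses; it also supplies the carbon skeleton of cysteine in transsulfuration. Many of these genes are known targets of ATF4, a transcription factor whose protein accumulates when amino acids are short or the endoplasmic reticulum is stressed, and pancreatic cancer cells are known for a high use of glutamine.

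Most of the members were higher after rhCYGB. Because they were chosen with earlier results of these data known, the shares below may reflect that choice and are descriptive. At an adjusted p under 0.05, 27 of 33 rose (81.8%), against 39.0% of all tested genes that were higher. By contrast 5 of 33 fell (15.2%), where 38.6% of all tested genes were lower, and *ASL* alone did not pass. A rise of 2-fold or more was seen for 22 of 33 (66.7%), against 12.4% of all tested genes, and a fall of 2-fold or more only for *SHMT1* (3.03% of the members, against 14.7% of all tested genes). The median log2 fold change of the members was 1.51 and their range was -1.34 to 3.46, while the median over all tested genes was -0.005. In 32 of the 33 the untreated and rhCYGB libraries did not overlap in CPM, and that was also the case for 79.5% of all tested genes, so a lack of overlap by itself says little about a member. The 10 transporters had a median of 1.81, the glutamine, glutamate, asparagine and transaminase group 1.51, the serine, glycine and one-carbon group 1.17, and the 3 proline genes -0.35.

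**Figure D1:**
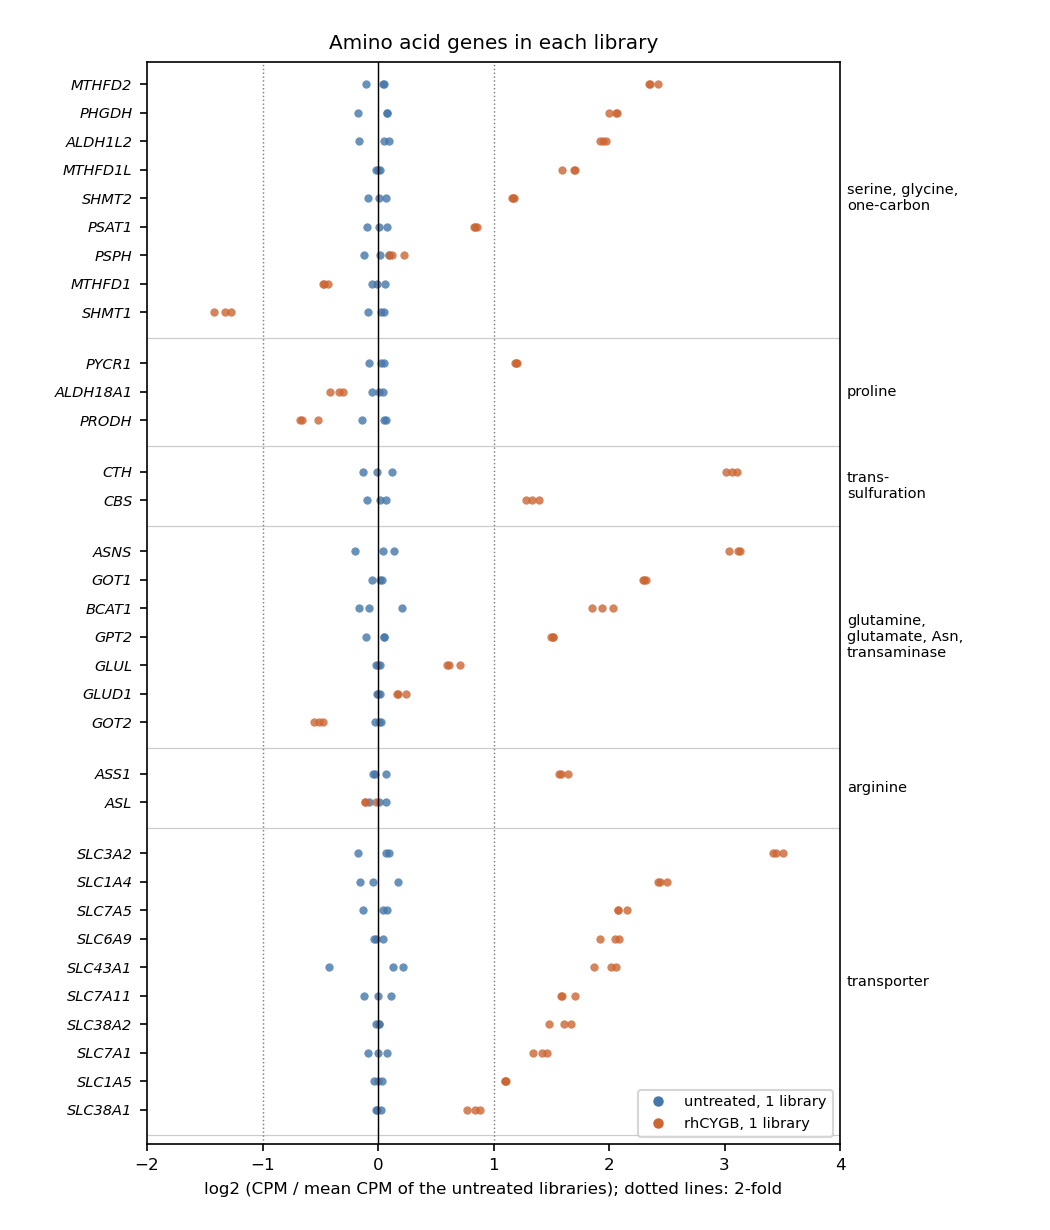
Each point is 1 library, and the horizontal axis is the log2 of its CPM over the mean CPM of the 3 untreated libraries; genes are grouped by role and ordered by fold change within a role. All 10 transporters lie to the right of their untreated points, *SLC3A2* farthest at a log2 fold change of 3.46, while *SHMT1*, *MTHFD1*, *ALDH18A1*, *PRODH* and *GOT2* lie to the left and the points of *ASL* overlap.

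ATF4 binds DNA together with C/EBP proteins at a composite element whose core can be written TGATGNAA. The windows around the members' start sites were searched for these letters and their reverse complement. RefSeq windows of 250 bases before to 50 bases after a start (GRCh38.p14) were at hand for 26 of the 33 members; *PSPH*, *SHMT2*, *ALDH1L2*, *PYCR1*, *PRODH*, *GPT2* and *SLC7A11* had no entry. The letters were found for 9 of the 26 (34.6%) and in 11 of their 45 windows (24.4%). Windows of 1 gene can overlap, and 3 of the 4 *MTHFD1L* windows hold the same site. The letters stood in 3.62% of all 35116 windows of the table and in 1.96% of the 15951 windows of tested genes. These 2 shares are per window, and a share per gene was not computed for all tested genes. Because many members are known ATF4 targets, a higher share among them is no independent result and was not tested. The 9 genes were *ASNS*, *BCAT1*, *GOT1*, *MTHFD1L*, *SLC1A4*, *SLC1A5*, *SLC38A1*, *SLC3A2* and *SLC7A1*, and all 9 were higher after rhCYGB. Of the 17 members with windows and no match, 12 were higher, 4 were lower and 1 did not pass. This split was not tested, and 81.8% of all 33 members were higher. The members were chosen with earlier results known, and the share of higher genes among all tested genes with a match was not computed. The stretches of the 5 genes among the 9 with the largest rises are shown 5′ to 3′ on the gene's strand, 30 bases each, so that the element can be read in its setting; capitals mark the match, which in *SLC3A2*, *SLC1A4* and *GOT1* is the reverse complement.
SLC3A2: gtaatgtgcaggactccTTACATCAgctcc
ASNS: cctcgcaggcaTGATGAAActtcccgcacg
SLC1A4: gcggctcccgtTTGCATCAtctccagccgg
GOT1: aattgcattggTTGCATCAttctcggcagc
BCAT1: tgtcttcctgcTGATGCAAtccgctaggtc
These lie at chr11:62881719-62881748 (plus strand) for *SLC3A2*, chr7:97872458-97872487 (minus) for *ASNS*, chr2:64989381-64989410 (plus) for *SLC1A4*, chr10:99430804-99430833 (minus) for *GOT1* and chr12:24949131-24949160 (minus) for *BCAT1*, all in GRCh38.p14. Counted from the RefSeq start whose window holds it, the match begins 37 bases downstream in *SLC3A2* and crosses the start in *SLC1A4*. It ends 60 bases upstream in *ASNS*, 190 in *GOT1* and 40 in *BCAT1*. The match stood in 1 of 3 windows of *SLC3A2*, 1 of 2 each of *SLC1A4* and *ASNS*, 1 of 5 of *BCAT1* and 1 of 1 of *GOT1*. All 5 stretches overlap an exon of some transcript in the GENCODE annotation. A match of letters is a description of the sequence and no measurement of binding.

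The transporters among the members rose without exception, 10 of 10, against 39.0% of all tested genes. A rise of 2-fold or more was seen for 9 of them, against 12.4% of all tested genes. *SLC3A2* encodes CD98hc, the heavy chain that brings several light chains, among them the products of *SLC7A5* and *SLC7A11*, to the cell surface. It had 93.7, 91.8 and 77.7 CPM in the untreated libraries and 995, 938 and 956 CPM after rhCYGB. The lowest treated library was far above the highest untreated one. Its log2 fold change of 3.46 ± 0.060 (SE; an 11.0-fold rise, adjusted p = 7.04e-16) was the largest of the members and ranked 100 of 14728 genes from the top.

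The light chains among the members, *SLC7A5* and *SLC7A11*, had smaller fold changes than the heavy chain. *SLC7A5* encodes LAT1, which takes up leucine and other large neutral amino acids in exchange for glutamine, and it went from 196, 191 and 170 CPM to 786, 785 and 827 CPM. These groups were apart, with a log2 fold change of 2.11 ± 0.050 (SE, adjusted p = 1.47e-14). Reads of *SLC7A5* may be shared with its pseudogene *SLC7A5P2*, which had 68 to 82 counts untreated and 338 to 403 after rhCYGB. *SLC7A11* encodes xCT, which imports cystine and exports glutamate, and it was low in this line: 10.4, 11.2 and 9.54 CPM untreated and 31.2, 31.4 and 34 CPM after rhCYGB. Again no library overlapped, and the log2 fold change was 1.63 ± 0.072 (SE, adjusted p = 1.36e-11). Per length, as deposited FPKM (fragments scaled by transcript length and library depth), *SLC7A11* was at 1.00 ± 0.0762 (SD, n = 3) and *SLC3A2* at 41.7 ± 4.05 (SD, n = 3) in untreated cells, and at 2.78 ± 0.184 and 424 ± 19.0 (SD, n = 3) after rhCYGB.

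Carriers of small neutral amino acids differed in how far they rose. *SLC1A4* (ASCT1), which exchanges serine, alanine and cysteine, had 13.2, 15.4 and 12.3 CPM untreated and 72.9, 74.2 and 77.4 CPM after rhCYGB, a log2 fold change of 2.45 ± 0.070 (SE, adjusted p = 9.87e-14). Its paralogue *SLC1A5* (ASCT2), a main route for glutamine into tumour cells, had 169, 165 and 161 CPM untreated and 354, 354 and 355 CPM after rhCYGB. The 3 treated libraries were nearly equal and all above the untreated ones, and the log2 fold change was 1.10 ± 0.035 (SE, adjusted p = 3.79e-13). *SLC38A2* (SNAT2), a sodium-coupled carrier whose mRNA is known to rise when amino acids are withdrawn, was the member with the highest mean FPKM in both groups. It went from 914, 898 and 917 CPM to 2783, 2536 and 2904 CPM (log2 fold change 1.59 ± 0.042, SE, adjusted p = 4.67e-14). *SLC38A1* (SNAT1), its paralogue, was the only transporter under 2-fold, with a log2 fold change of 0.83 ± 0.039 (SE, adjusted p = 2.46e-11).

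The remaining 3 carriers also rose. *SLC6A9* (GLYT1), a sodium-coupled glycine transporter, went from 15.3, 16.2 and 15.5 CPM to 65, 59.5 and 66.5 CPM, a log2 fold change of 2.02 ± 0.058 (SE, adjusted p = 1.17e-13); it overlaps *CCDC24*, which had 135 to 201 counts. *SLC43A1* (LAT3), which carries branched-chain amino acids and phenylalanine, was scarce, with 6.12, 6.52 and 4.17 CPM untreated and 20.4, 23.4 and 22.7 CPM after rhCYGB. One of its untreated libraries lay below the other 2, and its standard error of 0.13 around a log2 fold change of 1.98 was the widest of the transporters. *SLC7A1* (CAT-1), the main carrier of arginine and lysine, had a log2 fold change of 1.41 and 15.1 ± 0.738 FPKM untreated against 35.7 ± 1.82 after rhCYGB (SD, n = 3).

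In the serine pathway the enzymes of the same route did not move by the same amount. *PHGDH*, which catalyses the committed step from 3-phosphoglycerate, had 74.6, 74.5 and 62.6 CPM untreated and 295, 295 and 282 CPM after rhCYGB. All treated libraries were above all untreated ones, and the log2 fold change was 2.04 ± 0.057 (SE, adjusted p = 8.5e-14). *PSAT1*, the transaminase of the second step, went from 125, 120 and 111 CPM to 215, 212 and 212 CPM, which is a log2 fold change of 0.85 ± 0.044 (SE, adjusted p = 8.2e-11). *PSPH*, the phosphatase that releases serine, stood at 54.6, 57.6 and 49.7 CPM untreated and 63.1, 58.5 and 57.7 CPM after rhCYGB. The lowest treated library lay just above the highest untreated one, and the log2 fold change of 0.15 ± 0.058 (SE, adjusted p = 0.0302) had the opposite sign when libraries were scaled by total counts (-0.019) or taken as FPKM (-0.0023). The call was also lost with upper-quartile scaling (log2 fold change 0.0050, adjusted p = 0.941) and without untreated replicate 1 (adjusted p = 0.0538), untreated replicate 3 (0.147) or rhCYGB replicate 1 (0.103), by edgeR's quasi-likelihood test.

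The enzymes that pass carbon from serine to folate were split by compartment. *SHMT2* converts serine to glycine in mitochondria and *SHMT1* does so in the cytosol. *SHMT2* had 126, 122 and 114 CPM untreated and 272, 271 and 269 CPM after rhCYGB, while *SHMT1* had 67.1, 72.4 and 74 CPM untreated and 26.6, 29.5 and 28.4 CPM after rhCYGB. They moved in opposite directions without overlap, *SHMT2* by a log2 fold change of 1.17 ± 0.042 (SE, adjusted p = 1.17e-12) and *SHMT1* by -1.34 ± 0.056 (SE, adjusted p = 6.74e-12), a 2.53-fold fall. *SHMT1* overlaps *SMCR8* in the deposited table, which held 1768 to 2113 counts, and whether reads were counted by strand is not stated.

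Downstream of the serine hydroxymethyltransferases the same division was measured. *MTHFD2*, the mitochondrial methylene-tetrahydrofolate dehydrogenase and cyclohydrolase, went from 206, 207 and 186 CPM to 1074, 1016 and 1018 CPM, a log2 fold change of 2.38 ± 0.045 (SE, adjusted p = 1.5e-15). *MTHFD1L*, which releases formate from mitochondria, went from 47.6, 46.9 and 46.6 CPM to 152, 153 and 142 CPM, a log2 fold change of 1.66 ± 0.044 (SE, adjusted p = 4.41e-14). *ALDH1L2*, the mitochondrial formyl-tetrahydrofolate dehydrogenase, was near the bottom of the members at 2.98, 2.48 and 2.89 CPM and reached 11, 10.8 and 10.5 CPM (log2 fold change 1.95 ± 0.12, SE, adjusted p = 5.95e-10). *MTHFD1*, the trifunctional cytosolic counterpart of *MTHFD2* and *MTHFD1L*, was lower, from 209, 203 and 219 CPM to 151, 152 and 156 CPM. Its log2 fold change was -0.46 ± 0.039 (SE, adjusted p = 3.48e-08). *MTHFD1* overlaps *ZBTB25*, which had 439 to 559 counts untreated and 582 to 729 after rhCYGB. Thus the 4 mitochondrial enzymes among the members rose and both cytosolic ones fell. The split did not extend to other genes, which are no members and were named after their values were seen. *MTHFD2L*, the mitochondrial paralogue of *MTHFD2*, had 22.5, 23.0 and 19.0 CPM untreated and 15.1, 12.0 and 15.7 CPM after rhCYGB. Its log2 fold change was -0.59 ± 0.099 (SE, adjusted p = 6.39e-05). *ALDH1L1*, the cytosolic paralogue of *ALDH1L2*, was scarce and did not pass, with a log2 fold change of 0.31 ± 0.27 (SE, adjusted p = 0.311). Mitochondrial genes of the same role went both ways: *GLDC* (-1.0), *SFXN1* (-0.93), *GCSH* (-0.82) and *DLD* (-0.26) were lower, *AMT* (0.76), *GCAT* (0.74) and *SLC25A32* (0.37) higher.

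The 2 transsulfuration enzymes both rose, the later step with the larger fold change. *CBS* joins homocysteine and serine to cystathionine, and *CTH* cleaves cystathionine to release cysteine. *CTH* had 11.4, 10.4 and 9.54 CPM untreated and 87.1, 90 and 84 CPM after rhCYGB, an 8.36-fold rise with a log2 fold change of 3.06 ± 0.063 (SE, adjusted p = 3.46e-15). *CBS* started higher, at 150, 145 and 134 CPM, and reached 361, 375 and 349 CPM (log2 fold change 1.34 ± 0.046, SE, adjusted p = 7.16e-13). Neither gene had overlapping groups. Per length *CBS* remained the higher of the pair, at 116 ± 1.98 FPKM against 34.7 ± 0.485 FPKM for *CTH* after rhCYGB (SD, n = 3).

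Proline genes moved in both directions. *PYCR1*, which makes proline from pyrroline-5-carboxylate in mitochondria, went from 107, 109 and 99.7 CPM to 240, 241 and 242 CPM, a log2 fold change of 1.19 ± 0.041 (SE, adjusted p = 7e-13). *ALDH18A1*, which supplies pyrroline-5-carboxylate from glutamate, was lower, with 112, 107 and 114 CPM untreated and 87.4, 83 and 89.7 CPM after rhCYGB (log2 fold change -0.35 ± 0.043, SE, adjusted p = 2.5e-06). *PRODH*, which oxidises proline, was scarce and lower, with 6.63, 5.73 and 6.55 CPM untreated and 3.96, 4.39 and 3.99 CPM after rhCYGB (log2 fold change -0.62 ± 0.13, SE, adjusted p = 0.000393). The groups did not overlap for any of the 3, and the 2 falls were under 2-fold.

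Among the genes of glutamine, glutamate and asparagine, asparagine synthetase stood apart. *ASNS*, which transfers an amide from glutamine to aspartate, had 62.9, 58.8 and 49.8 CPM untreated and 501, 470 and 496 CPM after rhCYGB. Every treated library was several times above every untreated one, and the log2 fold change was 3.10 ± 0.066 (SE; 8.56-fold, adjusted p = 5.25e-15). A readthrough locus, *CZ1P-ASNS*, overlaps it and had 23 to 92 counts untreated and 172 to 234 after rhCYGB.

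The aspartate aminotransferases moved apart. *GOT1*, the cytosolic form, had 66.6, 65.8 and 62.9 CPM untreated and 326, 322 and 320 CPM after rhCYGB, a log2 fold change of 2.31 ± 0.039 (SE, adjusted p = 4.98e-16). *GOT2*, the mitochondrial form, had 260, 250 and 257 CPM untreated and 179, 174 and 184 CPM after rhCYGB, a log2 fold change of -0.51 ± 0.037 (SE, adjusted p = 4.64e-09). Here the cytosolic form rose and the mitochondrial form fell, the reverse of the folate enzymes among the members. *GPT2*, the mitochondrial alanine aminotransferase, went from 46.2, 46.2 and 41.6 CPM to 128, 128 and 126 CPM (log2 fold change 1.51 ± 0.047, SE, adjusted p = 2.6e-13). *BCAT1*, the cytosolic branched-chain aminotransferase, was scarce but higher, from 5.21, 4.02 and 4.27 CPM to 17.3, 16.2 and 18.4 CPM (log2 fold change 1.95 ± 0.11, SE, adjusted p = 2.1e-10).

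The genes that fix or release ammonia at glutamate were higher by less than 2-fold. *GLUL*, glutamine synthetase, went from 21.2, 21 and 20.7 CPM to 31.8, 34.4 and 32 CPM, a log2 fold change of 0.64 ± 0.057 (SE, adjusted p = 5.36e-08). *GLUD1*, the mitochondrial glutamate dehydrogenase, had 248, 245 and 243 CPM untreated and 277, 276 and 291 CPM after rhCYGB. Its groups did not overlap, but the log2 fold change of 0.20 ± 0.036 (SE, adjusted p = 0.000142) no longer passed with upper-quartile scaling (0.054), total counts (0.031) or FPKM (0.021).

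The 2 arginine genes differed. *ASS1*, which joins citrulline and aspartate, had 27, 27.4 and 29.3 CPM untreated and 87.3, 82.5 and 83.8 CPM after rhCYGB, a log2 fold change of 1.60 ± 0.050 (SE, adjusted p = 2.6e-13). *ASL*, which splits the product into arginine and fumarate, had 54.3, 52.1 and 49 CPM untreated and 47.9, 51.2 and 47.9 CPM after rhCYGB. These groups overlapped, and the log2 fold change of -0.08 ± 0.052 (SE, adjusted p = 0.172) did not pass, although it passed as lower with upper-quartile scaling (-0.22), total counts (-0.25) and FPKM (-0.23).

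**Figure D2:**
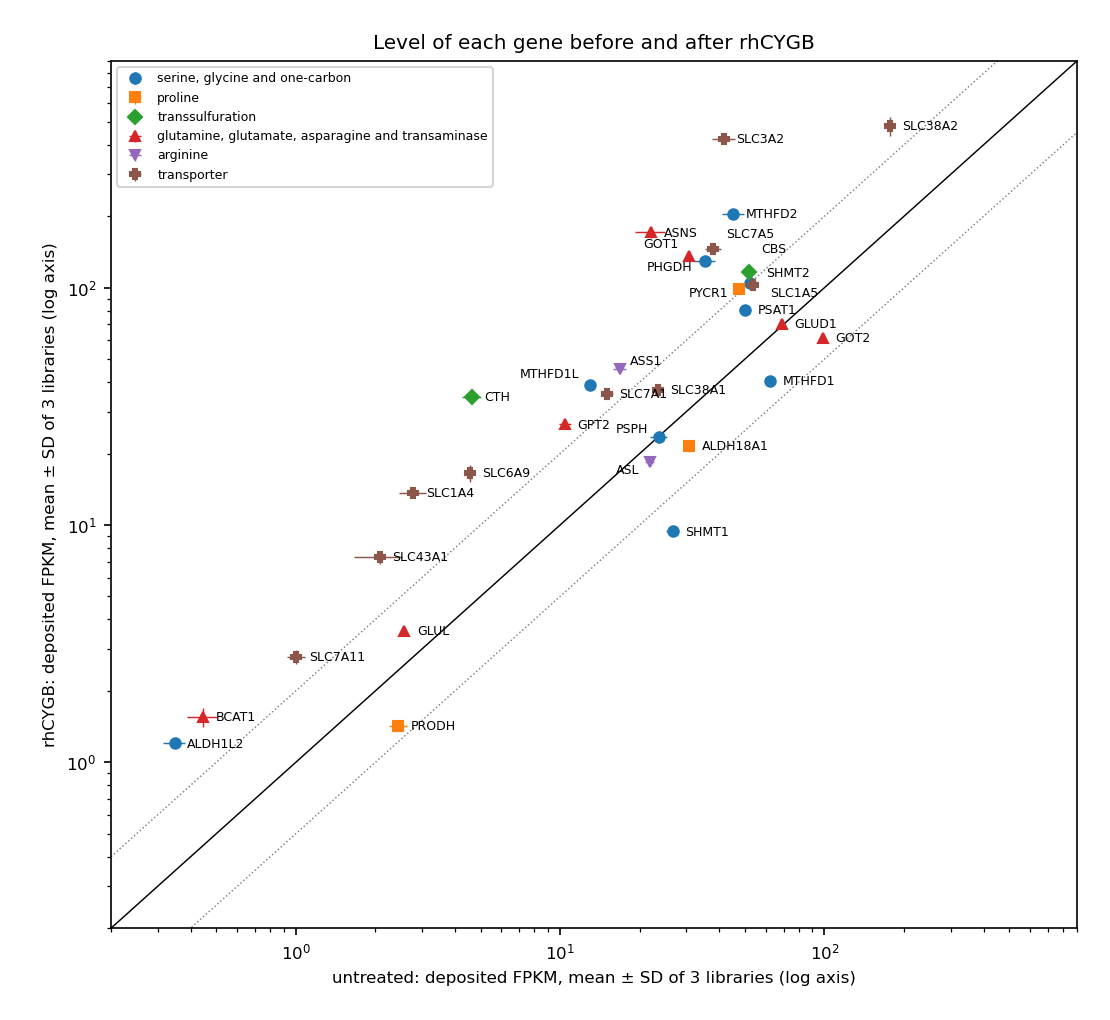
Mean deposited FPKM of each member in the untreated (horizontal) and rhCYGB libraries (vertical), both on log axes, with bars of 1 SD over 3 libraries; the solid line marks equal values and the dotted lines 2-fold. *SLC38A2* had the highest mean in both groups (177 and 480 FPKM), *SLC3A2* moved from 41.7 to 424 FPKM, and *ALDH1L2* was the lowest in both (0.348 and 1.20 FPKM).

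Per length, the order of the members changed with treatment. In untreated cells the highest were *SLC38A2* at 177 ± 2.84 FPKM, *GOT2* at 98.4 ± 1.94 and *GLUD1* at 69.2 ± 0.204 (SD, n = 3). After rhCYGB the highest were *SLC38A2* at 480 ± 42.9, *SLC3A2* at 424 ± 19.0, *MTHFD2* at 205 ± 8.63 and *ASNS* at 171 ± 9.54 FPKM (SD, n = 3). Within each treated library *SLC38A2* was above *SLC3A2* (489 against 440, 433 against 403 and 517 against 428 FPKM), although their ranges overlapped across libraries, and *MTHFD2* was below both. The lowest members were *ALDH1L2* and *BCAT1* before treatment, and after it *ALDH1L2*, followed by *PRODH* at 1.42 ± 0.0596 and *BCAT1* at 1.55 ± 0.137 FPKM (SD, n = 3), which lay within the spread of each other.

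Ratios between members within a library do not depend on how libraries are scaled to each other, and 14 pairs of enzymes or carriers that share a substrate, a step or a partner were compared as FPKM ratios. In all 14 the untreated and rhCYGB ratios did not overlap. A share over other gene pairs was not computed, and 79.5% of all tested genes had no overlap in CPM. The pairs were formed from members chosen with earlier results of these data known, so 14 of 14 is only descriptive. The exact permutation test over the libraries (two-sided) gave p = 0.1 for each, the smallest value that 3 against 3 libraries allow (20 splits), and 0.1 after adjustment over the 14 pairs, so none could reach 0.05. Ratios of read counts moved the same way in all 14.

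The ratios of mitochondrial to cytosolic folate enzymes rose in every treated library. *SHMT2* was at 2.18, 1.92 and 1.78 times the FPKM of *SHMT1* in the untreated libraries and at 11.8, 10.5 and 11.0 times after rhCYGB. *MTHFD2* was below *MTHFD1* in every untreated library (0.733, 0.831 and 0.626) and about 5 times above it in every treated one (5.31, 5.01 and 4.88). Within the mitochondrial route *MTHFD2* to *MTHFD1L* changed less, from 3.50 ± 0.323 to 5.24 ± 0.211 (SD, n = 3).

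*GOT1* was likewise below *GOT2* in all untreated libraries (0.314, 0.322 and 0.300) and above it in all treated ones (2.22, 2.26 and 2.12), so the more abundant aspartate aminotransferase mRNA changed from the mitochondrial to the cytosolic form. *ASS1* to *ASL* crossed 1 in the same way, from 0.771 ± 0.0722 to 2.45 ± 0.150 (SD, n = 3). *PYCR1* to *PRODH*, synthesis over breakdown of proline, rose from 19.6 ± 2.48 to 69.8 ± 2.16, and *CTH* to *CBS* from 0.0899 ± 0.00308 to 0.298 ± 0.00136 (SD, n = 3). *ASNS* to *GLUL* rose from 8.59 ± 1.06 to 47.7 ± 3.68, and *GPT2* to *GOT2* from 0.106 ± 0.00696 to 0.431 ± 0.0147 (SD, n = 3).

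Among carriers the ratio of each light chain among the members to the heavy chain was lower after rhCYGB. *SLC7A5* was at 0.895, 0.898 and 0.945 times the FPKM of *SLC3A2* untreated and at 0.328, 0.347 and 0.359 after rhCYGB. *SLC7A11* to *SLC3A2* fell from 0.0241 ± 0.00151 to 0.00655 ± 0.000414, and *SLC7A11* to *SLC7A5* from 0.0264 ± 0.00137 to 0.0190 ± 0.000346 (SD, n = 3). *SLC1A4* rose relative to *SLC1A5*, from 0.0518 ± 0.00586 to 0.133 ± 0.00408, and *SLC38A2* relative to *SLC38A1*, from 7.55 ± 0.124 to 12.9 ± 0.365 (SD, n = 3).

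**Figure D3:**
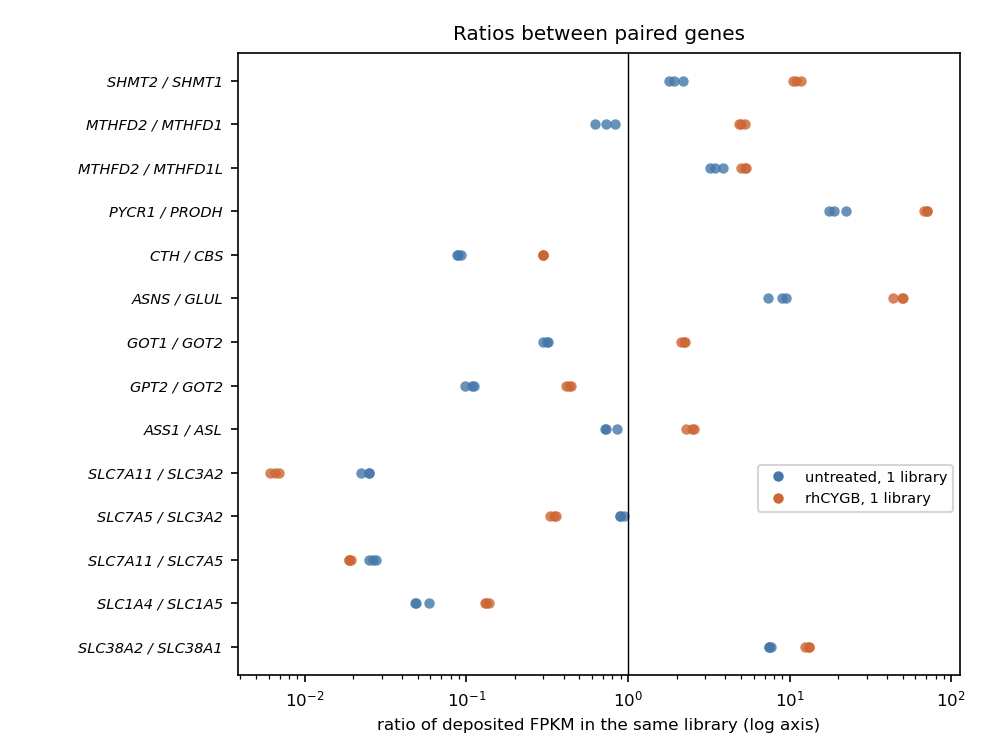
Ratio of deposited FPKM of the first gene to the second in each library, on a log axis; the line marks 1. No pair overlaps between the groups, the ratios *MTHFD2* / *MTHFD1*, *GOT1* / *GOT2* and *ASS1* / *ASL* cross from below 1 to above 1, and the 3 ratios of CD98 chains move to the left.

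The deposited transcript table splits each gene's counts over annotated transcripts, an estimate that rests on the few bases in which they differ. Of the 28 members with at least 100 counts in every library and a second transcript with counts, 10 had a transcript whose share moved by 10 percentage points or more without overlap, against 26.4% of the 7092 genes that met the same conditions; the limit of 10 points was chosen after the values were seen. *SLC38A2* has 2 listed transcripts, and the shorter, of 4679 bases, held 1.04%, 3.90% and 2.74% of its counts untreated and 30.5%, 31.5% and 28.2% after rhCYGB. For *SLC3A2* a transcript of 1885 bases held 75.4%, 68.9% and 67.3% untreated and 96.6%, 97.1% and 95.6% after rhCYGB. Both are uniform within each group.

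*ASNS* was less even. Its transcript of 2385 bases held 66.7%, 13.8% and 44.1% of the counts in the untreated libraries and 73.6%, 81.7% and 77.0% after rhCYGB, so the untreated libraries differed more among themselves than the nearest libraries of the 2 groups. *SLC38A1* gave 61.4%, 54.9% and 48.9% to a transcript of 8097 bases untreated and 82.7%, 83.9% and 80.1% after rhCYGB. *ALDH18A1* gave 16.5%, 15.9% and 24.5% to a transcript of 3346 bases untreated and 45.0%, 37.2% and 38.2% after rhCYGB, a transcript only slightly shorter than its other main one of 3352 bases. In *SHMT2* the share of the 2157-base transcript was 86.4% on average untreated and 68.9% after rhCYGB. The shift counted for *SLC6A9* rested on untreated replicate 1. Its transcript of 3213 bases held 31.5%, 1.93% and 2.53% untreated and 0.745%, 1.57% and 1.88% after rhCYGB.

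**Figure D4:**
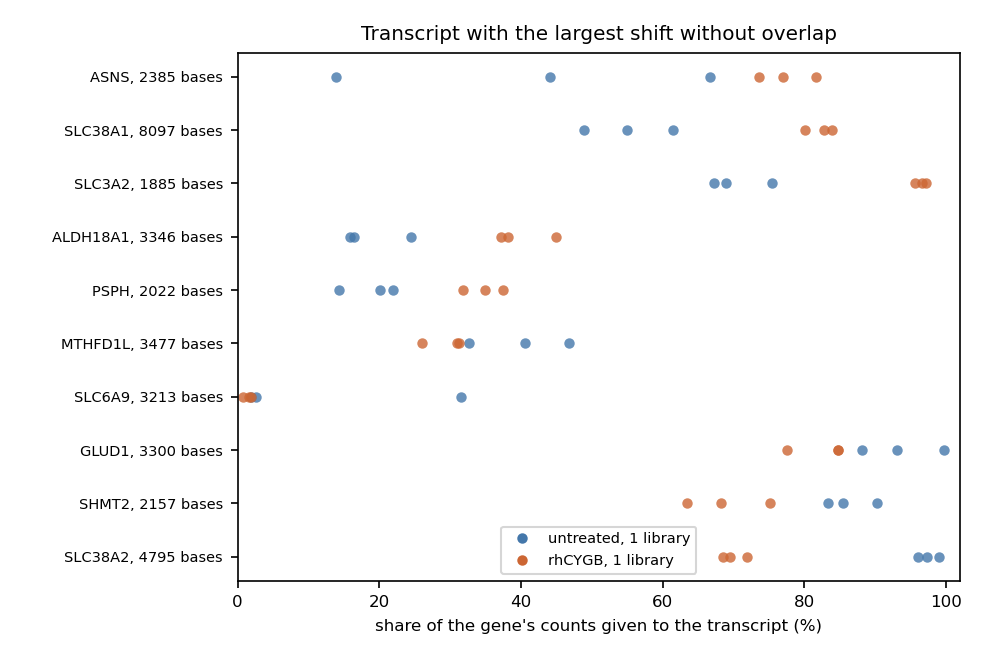
Share of a gene's counts given to 1 transcript in each library (percent), for the 10 members in which a share moved by 10 points or more without overlap; the transcript with the largest such shift is drawn and named by its length. *SLC38A2* and *SLC3A2* are tight within groups, while the untreated libraries of *ASNS* run from 13.8% to 66.7%.

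Of 108 other genes of the same pathways, 81 were tested, 19 had 0 counts in every library and the rest were too low to test. They moved the other way on balance: 23 were higher, 48 lower and 10 did not pass, and their median log2 fold change was -0.39. A 2-fold rise was found for 5 of the 81 (6.17%) and a 2-fold fall for 19 (23.5%), against the 12.4% and 14.7% of all tested genes given above. The contrast between both lists is a description, with no test of it, and it may reflect how the lists were chosen.

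Of the 20 other tested genes of serine, glycine and one-carbon metabolism, 11 were lower (55.0%), against 38.6% of all tested genes. The 8 that were higher (40.0%) were near the 39.0% of all tested genes. *TYMS*, thymidylate synthase, went from 198, 201 and 212 CPM to 53.5, 51.2 and 51.8 CPM (log2 fold change -1.96 ± 0.042, SE, adjusted p = 5.25e-15). None of the 20 rose by 2-fold, where 5 of the 9 members and 12.4% of all tested genes did. In proline metabolism *PYCR3*, a cytosolic reductase of the same reaction as *PYCR1*, had a log2 fold change of -1.84 and *ALDH4A1*, which continues proline oxidation, one of -1.43.

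Some other genes rose with the members. *ARG2*, the mitochondrial arginase, went from 6.39, 7.34 and 6.62 CPM to 36.9, 33.8 and 38.1 CPM (log2 fold change 2.42 ± 0.075, SE, adjusted p = 2.7e-13). *GFPT1*, which uses glutamine to make glucosamine 6-phosphate, had a log2 fold change of 1.91, *SLC25A38*, a mitochondrial glycine carrier, one of 1.55, and *ENOPH1*, of the methionine salvage pathway, one of 1.11. Lower were *ABAT*, the GABA transaminase, at -1.67, *SLC6A6*, the taurine transporter, at -1.21, *SLC38A10* at -1.06 and *BCKDHB*, a subunit of the branched-chain ketoacid dehydrogenase, at -1.03 (all adjusted p under 0.05). Of the 21 other transporters tested, 5 were higher (23.8%) and 12 lower (57.1%), against 39.0% and 38.6% of all tested genes. Among the 10 members 10 were higher and 0 lower. The 2 sets are unlike, since the other list includes carriers of inner membranes such as *SLC25A38* and the members act at the plasma membrane.

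**Figure D5:**
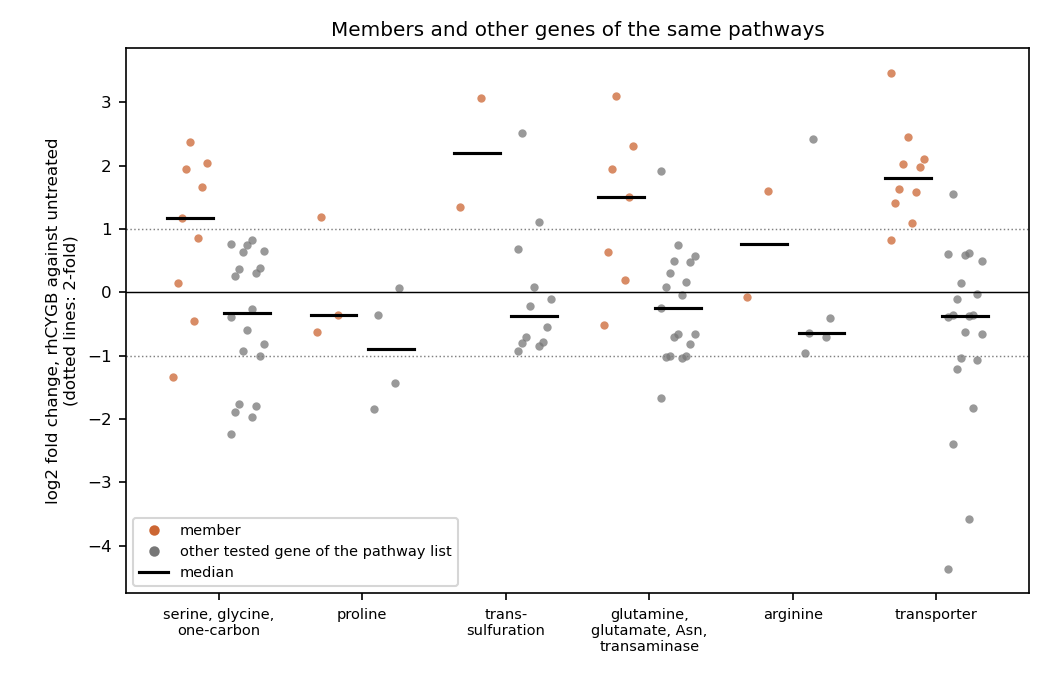
Log2 fold change of each member (orange) and of each other tested gene of the pathway list (grey), by role; black bars are medians and dotted lines mark 2-fold. In every role the members' median is above that of the other genes, for example 1.81 against -0.38 for transporters, and the proline members' median of -0.35 is below 0.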

How the data were processed

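mRNA of 3 untreated and 3 rhCYGB samples was sequenced from both ends with a stranded kit. The submitters' processing notes name FastQC 0.11.7, HISAT2 2.1.0 and StringTie 2.1.3b, and the build mm10, a mouse build, although the samples and genes are human; the build of the deposited positions is not given in the sources used here, so gene positions are not printed. Whole-number read counts per gene and per transcript were deposited by the authors, beside FPKM values they normalised by length and depth and TPM values, which were not used here (12 columns). CPM, counts per library total, was computed from the counts.

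Counts were tested with edgeR 4.0.16 in R 4.3.3 (filterByExpr, trimmed mean of M values, quasi-likelihood F test, Benjamini-Hochberg adjustment over all 14728 genes); a call is an adjusted p under 0.05. The 6 libraries, grouped by their labels, were checked for duplicates and none were the same; whether they came from separate cultures is not given, so p-values measure the spread between these libraries only, which may be technical. The common dispersion of 0.003 corresponds to a coefficient of variation of 5.48%, and 3 counts equal 0.0669 to 0.0902 CPM. On simulated counts with 200 changed genes a call also needed a change of 2-fold or more. By that stricter rule edgeR called 189 of the 196 tested (96.4%) and 7 unchanged genes of 14536 run. In the data 11427 of the 14728 genes passed, so the simulation does not check scaling or false calls under so broad a change. Ratios of FPKM were compared with an exact permutation test (SciPy 1.17.1). Alternatives were other scalings, DESeq2 1.42.0, limma 3.58.1 on log2(FPKM + 1) and log2(FPKM + 0.1), other filters, transcript sums, a replicate block and leaving out each library.

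The members and lists were chosen with earlier results of these data known. All 33 members are described. Of the 108 other pathway genes the text names, for each role, at most the 2 steepest rises and the 2 steepest falls. These had to pass, move by 2-fold, not overlap and reach a mean of 100 normalised counts in the group where they were higher. The genes set beside the folate enzymes by compartment were named outside this rule. The result for 1 gene that this rule names is not reported here. Sequences are from RefSeq (GRCh38.p14). The orientation of windows was checked against GENCODE transcripts for the 26 members with windows. For 22 of them the first 30 transcribed bases of a window were found in a transcript of the gene, and for the others they were not. Protein sequences were not used here.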

Additional observations from a re-analysis of the deposited data

How the results depend on the processing

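The number of members that passed in each direction stayed within 1.5 times under every alternative run: 25 to 27 higher, 5 or 6 lower, 17 to 22 higher by 2-fold and 1 lower by 2-fold. Of 528 single-member values under alternatives, 513 kept their direction and side of the threshold; the others belong to *PSPH*, *GLUD1* and *ASL*. *PSPH* turned to -0.019 with total counts, -0.0023 on log2(FPKM + 1) and -0.0024 on log2(FPKM + 0.1). The median of the members, 1.51, was 1.37 with upper-quartile factors, 1.35 with total counts, 1.05 on log2(FPKM + 1) and 1.34 on log2(FPKM + 0.1), and 1.47 to 1.54 when 1 library was left out. Upper-quartile factors moved the median of all tested genes by -0.141, total counts by -0.165 and log2(FPKM + 0.1) by -0.116, so part of those shifts lies in the scaling of every gene. In the wider list the 2-fold rises numbered 3 on both FPKM scales, against 5, and the 2-fold falls 9 on log2(FPKM + 1), against 19; a pseudocount of 1 shrinks the fold of low genes by construction.

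Untreated and rhCYGB libraries share replicate numbers, but same-numbered libraries did not deviate together (correlations of -0.05, 0.01 and 0.01), so the numbers were not taken to pair them. With the replicate block 27 members were higher, 5 lower, 22 higher by 2-fold and 1 lower by 2-fold, with a median of 1.51; the wider list had 5 2-fold rises and 20 2-fold falls, and 11351 of all tested genes passed, against 11427. With 3 libraries a group, 1 line, 1 dose and 1 time, and the low counts of *ALDH1L2*, *BCAT1*, *PRODH* and *SLC43A1*, the precision of the scarce members is limited.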
